A study of Caenorhabditis elegans with 3 samples.

Results

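A divergent promoter is a stretch of DNA between 2 protein-coding genes that start near each other and are read in opposite directions, 1 on the minus strand to the left and 1 on the plus strand to the right. DPL-1 ChIP-seq peaks at such promoters were taken from the peak list that the authors thresholded by the irreproducible discovery rate (IDR, a procedure that keeps peaks ranking alike in replicates). A peak counted when its summit, the position of highest signal, lay within 500 bp of the 5' end of at least 1 gene on each strand, with the minus-strand 5' end on the left. Of 3295 IDR peaks, 3270 were nuclear, and 515 of these met the rule (15.7%, exact 95% interval 14.5 to 17.04). They lay at 512 distinct gene pairs with 1024 distinct genes. The comparison class was 1275 one-gene peaks, whose summit had the 5' end of exactly 1 protein-coding gene within 500 bp.

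All values came from 1 group of 3 biological replicates, numbered 1 to 3 as labelled. The animals were young adult hermaphrodites of Caenorhabditis elegans strain YL507, a transgenic line that makes DPL-1 with a GFP-FLAG tag at its C-terminal end. Chromatin of whole worms was sonicated and the tagged protein was recovered with an antibody to GFP, so the tissue in which a site was bound cannot be read from the data. The series has no second condition, and classes of peaks were therefore compared within each replicate. With 3 replicates the two-sided exact sign-flip permutation test cannot give a p below 0.25, and intervals cover counting only.

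DPL-1 is the worm DP protein, which joins E2F proteins such as EFL-1 to bind DNA. With the retinoblastoma-like protein LIN-35 and the LIN proteins of the MuvB core it forms the DREAM complex, known for repressing cell cycle genes. The DNA-binding subunit of that core, LIN-54, recognises the cell cycle homology region (CHR) element, while the E2F and DP pair recognises GC-rich E2F sites. Many worm genes lie in operons or have their first exon joined to a spliced leader, so an annotated 5' end is often a trans-splice site that lies downstream of the transcription start.

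The DNA between the 5' ends is shown for 3 of the strongest divergent-promoter peaks off the first chromosome with a gap of at most 300 bp, because in these the whole shared promoter can be read at once. Sequences are from the RefSeq genome of build ce11 (WBcel235), plus strand, from the base after the minus-strand 5' end to the base before the plus-strand 5' end. Capitals mark E2F-like matches (TTNNCGC with C or G at each N) and CHR matches (TTNGAA with C or T at the N), each on either strand. The windows are chrIII:1080776-1080900 for rab-18 and kbp-4, chrIII:1950270-1950534 for polh-1 and rps-22, and chrIV:4390591-4390843 for rpl-7A and set-21.
rab-18 and kbp-4: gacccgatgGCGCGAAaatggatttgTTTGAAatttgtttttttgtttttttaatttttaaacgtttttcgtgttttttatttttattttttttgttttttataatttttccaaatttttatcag
polh-1 and rps-22: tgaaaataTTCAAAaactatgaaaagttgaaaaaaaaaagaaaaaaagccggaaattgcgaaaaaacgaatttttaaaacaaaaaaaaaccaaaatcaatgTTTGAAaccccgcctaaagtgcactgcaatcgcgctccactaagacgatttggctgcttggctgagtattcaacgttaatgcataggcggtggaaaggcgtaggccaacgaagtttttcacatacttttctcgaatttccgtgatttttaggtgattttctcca
rpl-7A and set-21: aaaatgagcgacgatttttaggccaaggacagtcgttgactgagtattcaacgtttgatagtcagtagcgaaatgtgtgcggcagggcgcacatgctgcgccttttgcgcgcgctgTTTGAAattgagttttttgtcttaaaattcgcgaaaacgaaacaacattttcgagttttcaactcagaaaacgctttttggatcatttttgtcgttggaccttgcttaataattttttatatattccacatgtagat
The summit at rab-18 and kbp-4 lay 18 bp inside the 5' UTR of rab-18, just left of the printed gap, and the E2F-like and CHR matches of the gap lay within 50 bp of it. The polh-1 and rps-22 gap had 2 CHR matches and no E2F-like match around its summit at base 144, and the rpl-7A and set-21 gap had 1 CHR match and a summit at base 63.

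The 4 strongest divergent-promoter peaks off the first chromosome with an E2F-like match within 50 bp of the summit are shown with 60 bp on each side of the summit, in the same build, strand and use of capitals, to let the sites be read in place. The windows are chrII:11874819-11874939 for npp-3 and top-2, chrIV:1094280-1094400 for cct-8 and Y55F3AR.2, chrII:15010568-15010688 for Y53F4B.9 and Y53F4B.11, and chrII:411004-411124 for dnsn-1 and C24H12.4. Peaks whose window reaches into an annotated exon, such as that at rab-18 and kbp-4, were passed over.
npp-3 and top-2: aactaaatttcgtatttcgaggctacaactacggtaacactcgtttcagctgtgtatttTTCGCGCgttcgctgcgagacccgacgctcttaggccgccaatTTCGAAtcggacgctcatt
cct-8 and Y55F3AR.2: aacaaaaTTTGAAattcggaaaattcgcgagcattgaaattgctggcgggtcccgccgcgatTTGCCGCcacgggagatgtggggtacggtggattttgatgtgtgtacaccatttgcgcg
Y53F4B.9 and Y53F4B.11: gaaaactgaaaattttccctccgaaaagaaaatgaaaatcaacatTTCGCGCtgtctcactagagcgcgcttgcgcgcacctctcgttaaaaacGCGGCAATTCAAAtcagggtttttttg
dnsn-1 and C24H12.4: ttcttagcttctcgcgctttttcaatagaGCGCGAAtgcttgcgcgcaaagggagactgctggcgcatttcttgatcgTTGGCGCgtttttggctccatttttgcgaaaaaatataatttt
In each window base 61 is the summit. The TTCGCGC of npp-3 and top-2 covers the summit itself, and the E2F-like match of cct-8 and Y55F3AR.2 begins just right of it. The other windows each hold 2 E2F-like matches, and in Y53F4B.9 and Y53F4B.11 the right one runs directly into a CHR match, so that both appear as 1 run of capitals.

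Head-to-head gene pairs had a peak far more often than genes in no such pair. The genome has 1794 pairs with a minus-strand 5' end left of a plus-strand 5' end and at most 1000 bp between them. Of these, 523 (29.2%) had an IDR summit within 500 bp of both ends, and the replicates' own top 3295 peaks reached 23.0%, 28.5% and 22.9% of the pairs. Of genes in a pair, 33.2% had an IDR summit within 500 bp of the 5' end (1174 of 3539), against 7.09% of genes in no such pair (1165 of 16434). A summit between a pair can count for both genes, so the percentages per gene are not independent. The density per length counts each peak once. Divergent-promoter peaks numbered 581.9 per Mb of the 0.885 Mb of DNA in which a summit would meet the rule, and one-gene peaks 72.1 per Mb of 17.7 Mb, a ratio of 8.07. In replicates 1, 2 and 3 the ratio was 7.09, 7.78 and 6.71, a mean of 7.19 ± 0.546 (SD, n = 3), above 1 in all 3 (exact sign-flip p = 0.25, two-sided). The 2 stretches of DNA are unlike. That of one-gene peaks runs up to 500 bp to both sides of a 5' end, so it takes in gene bodies as well as upstream DNA. One-gene summits lay a median of 175 bp upstream. How much of the ratio comes from how the stretches are drawn was not tested.

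Nearly all peaks with several 5' ends within 500 bp counted as divergent. Only 27 peaks had several 5' ends within 500 bp without a divergent pair among them. Of 542 multi-gene peaks, 515 (95.02%) lay at divergent promoters. This share was not compared with the length of DNA where a summit would have several 5' ends without a divergent pair. How much of it comes from the layout of genes was therefore not tested. Divergent-promoter peaks made up 28.3% (26.3 to 30.5) of the 1817 peaks at any 5' end. In the replicates' own top 3295 peaks there were 406, 500 and 406 of them, and the share was 25.8%, 27.6% and 24.7%.

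The strongest divergent-promoter peaks included many at ribosomal protein genes, which stood on 1 side of 8 of the first 15, while 38 of all 515 had such a gene. Signal is the authors' strength value per peak, comparable only within a list, and pairs are named with the minus-strand gene first. One-gene peaks at ribosomal protein genes were strong as well. Median signal at these genes was 204.5 for divergent-promoter and 168 for one-gene peaks, against 110.3 and 92.6 over each whole class. The strongest divergent-promoter peak was at rpl-20 and Y17G9B.5 (IV, 4749896 to 4750231), rpl-20 coding for a protein of the large ribosomal subunit. Its signal was 1238, rank 12 of the IDR list, and in replicates 1, 2 and 3 it was 313, 626 and 306, at ranks 19, 15 and 8. The second, at rpl-15 and K11H12.8 (IV, 654764 to 655085), had signal 1108 and replicate ranks of 23, 14 and 15. Both stood near the top in every replicate, and neither had an E2F-like or CHR match within 50 bp of the summit.

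The third joined a kinetochore and a ribosome gene. It lay at ska-3, a member of the Ska complex that holds kinetochores on microtubules, and rps-12, of the small ribosomal subunit, with signal 925. Next came rab-18 with kbp-4 (III, 1080590 to 1080887, signal 811), kbp-4 coding for a subunit of the Ndc80 complex at the kinetochore. Its replicate signals were 192, 472 and 145, at ranks 31, 25 and 39. The fifth was at rps-19 and hsr-9, the worm homologue of the DNA damage protein 53BP1 (I, 9625925 to 9626236, signal 764). All of these kept a rank within the first 60 in all replicates.

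Among the 15 strongest were also 2 DREAM genes. The peak at rpl-12 and lin-54 (IV, 13240528 to 13240840) had signal 720 and replicate ranks of 43, 37 and 32, and its summit lay 25 bp from rpl-12 and 368 bp from lin-54. The peak at lin-53, a histone-binding protein of the RbAp48 family, and nra-2 (I, 9619844 to 9620141) had signal 653 and ranks of 40, 45 and 47. The rest of the 15, with signal between 505 and 612, were at polh-1 (a translesion DNA polymerase) with rps-22, haf-3 (an ABC transporter) with F57A10.2, npp-3 (a nuclear pore protein) with top-2 (topoisomerase II), rps-20 with ekl-4, rpl-7A with set-21, rsr-1 (an SR-related splicing factor) with sri-5 (a chemoreceptor), cct-8 (a chaperonin subunit) with Y55F3AR.2, and Y53F4B.9 with Y53F4B.11. All 15 were among the top peaks of every replicate.

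Divergent-promoter peaks were on the whole somewhat stronger than one-gene peaks, though not the strongest of all. Their median signal was 110.3 (interquartile range 74.3 to 195), against 92.6 (62.9 to 160.0) for one-gene peaks, and the highest were 1238 at divergent promoters and 3595 among one-gene peaks. Peaks away from 5' ends had a median of 71.2. For each replicate, an IDR peak took the signal of the strongest relaxed peak within 100 bp, and IDR peaks without one were left out. This kept 458, 507 and 481 of the 515 divergent-promoter peaks and 1079, 1246 and 1162 of the 1275 one-gene peaks. Their medians were 25.5, 68.0 and 23.5 at divergent promoters, against 22.0, 57.6 and 20.9 at one-gene peaks. The ratio of medians was 1.16, 1.18 and 1.12, a mean of 1.15 ± 0.0283 (SD, n = 3), above 1 in all 3 (exact sign-flip p = 0.25). The difference depended on the window. With 250 bp in place of 500 bp, which counts many of these peaks as one-gene peaks, the ratio in the IDR list was 1.01, against 1.19 as given.

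They also recurred more often. Of the 515, 284 (55.1%, 50.7 to 59.5) had a summit within 100 bp among the top 3295 peaks of all 3 replicates, against 589 of 1275 one-gene peaks (46.2%, 43.4 to 49.0) and 40.8% of all nuclear IDR peaks. Another 145 were found in 2 replicates, 77 in 1 and 9 in none. In replicates 1, 2 and 3 the share found was 72.2%, 91.5% and 73.0% of divergent-promoter peaks, against 63.0%, 86.2% and 66.7% of one-gene peaks. The difference averaged 6.95 percentage points ± 2.06 (SD, n = 3; exact sign-flip p = 0.25). Among the stronger 50% of IDR peaks the difference in the share found in all 3 was 0.150 percentage points, and within 250 bp it was -0.194, against 8.95 as given.

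The gap between the 5' ends ranged from 9 to 947 bp with a median of 379 bp (interquartile range 265 to 522). Pairs were occupied most often at intermediate gaps. Of pairs 101 to 200 bp apart, 25.26% had an IDR peak (49 of 194, interval 19.3 to 32.0), of those 301 to 400 bp apart 51.4% (113 of 220, 44.6 to 58.1) and of those 701 to 800 bp apart 11.5% (19 of 165). The order of these 3 classes was the same in each replicate. Replicates 1, 2 and 3 had 20.1%, 24.7% and 16.5% at 101 to 200 bp, 38.6%, 50% and 42.3% at 301 to 400 bp, and 10.9%, 11.5% and 10.9% at 701 to 800 bp. The fall at long gaps is in part set by the rule, since a summit must be within 500 bp of both ends and the allowed stretch shrinks as the gap grows. Per Mb of that stretch there were 305 summits at 101 to 200 bp, 792 at 301 to 400 bp, 848 at 401 to 500 bp, 820 at 501 to 600 bp and 460 at 701 to 800 bp.

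**Figure D1:**
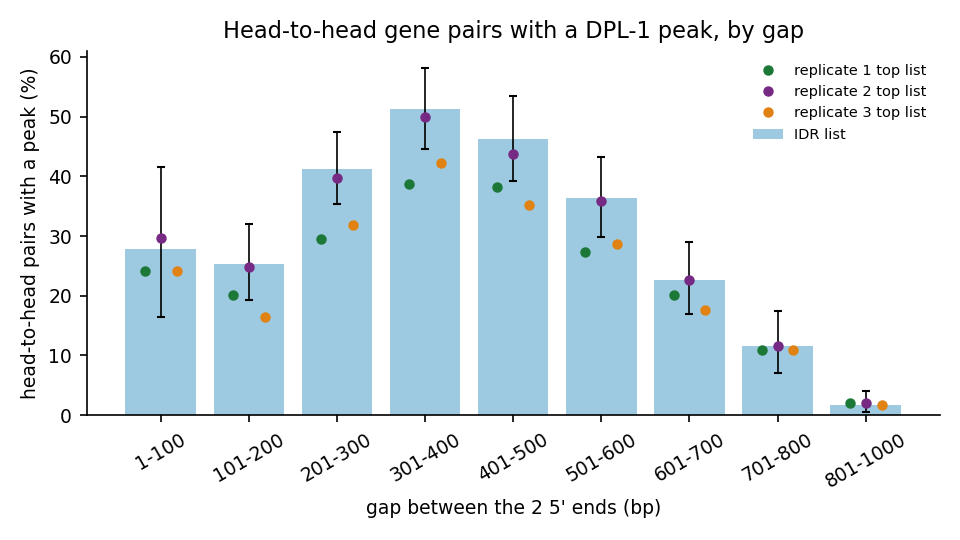
Share of the genome's head-to-head gene pairs with a DPL-1 peak within 500 bp of both 5' ends (y axis, %) by the gap between the ends (x axis, bp). Bars are the IDR list with exact 95% intervals and points the top 3295 peaks of each replicate. The bars are highest at 301 to 400 bp (51.4%) and fall to 11.5% at 701 to 800 bp, and replicate 2 lies above the other 2 replicates in most classes.

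At the extremes, cdc-37 (a kinase co-chaperone) and W08F4.3 start 9 bp apart, and their peak (signal 75.4) lay 225 bp inside cdc-37 and was in the top list of 1 replicate. F32D8.14 and F32D8.5 are 12 bp apart, with signal 129 and a summit between them, found in all 3 replicates. F25H9.6 and F25H9.7 are 15 bp apart, with signal 82.9. The longest gaps were 947 bp at snf-6, a neurotransmitter transporter gene, and mtg-1 (signal 132), 900 bp at sqv-3 and vha-1 (178), and 891 bp at pak-2 and C45B11.9 (84.0). The weakest 3 of all were at F26E4.4 and cox-7C, T28D6.6 and pen-2, and mrps-18A and ZC262.2, with signals of 46.4, 45.9 and 45.7. Of these 3 weakest, none was in the top list of all 3 replicates.

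Most summits lay between the 2 genes. Of 515, 475 (92.2%, 89.6 to 94.4) were between the 5' ends, 16 inside the minus-strand gene and 24 inside the plus-strand gene. In the replicates' own top peaks the share between the ends was 91.4%, 93.0% and 92.1%. The annotation had no gene at the summit of 443 divergent-promoter peaks (86.0%), against 953 of 1275 one-gene peaks (74.7%), and a summit between diverging genes is outside both by construction. Another 35 were in a 5' UTR, 31 in an exon of a noncoding gene, 4 in a coding exon and 2 in an intron (0.388%, against 118 or 9.25% of one-gene peaks). Of the 31, 29 were in genes annotated as ncRNA, 1 in a miRNA gene and 1 in an antisense RNA.

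Within the gap, summits were gathered around the middle. For gaps up to 500 bp, where the distance rule does not limit the position, 214 of 332 summits (64.5%, 59.0 to 69.6) lay in the middle 50% of the gap, both edges included. Divided into 4 equal parts from the minus-strand to the plus-strand end, the gaps held 60, 94, 118 and 60 summits, where a summit exactly on an edge counts in the part to its right. The replicates' own peaks gave 69.3%, 65.7% and 67.3%, a mean of 67.5% ± 1.80 (SD, n = 3), all above the 50% of an even spread. With all gaps the share was 70.3% (334 of 475), but long gaps allow only central summits. Across all 475 the median distance was 197 bp to the minus-strand and 179 bp to the plus-strand 5' end, and 251 summits (52.8%, 48.2 to 57.4) were nearer to the plus-strand gene, an interval that includes 50%. One-gene summits lay a median of 175 bp upstream of their gene.

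**Figure D2:**
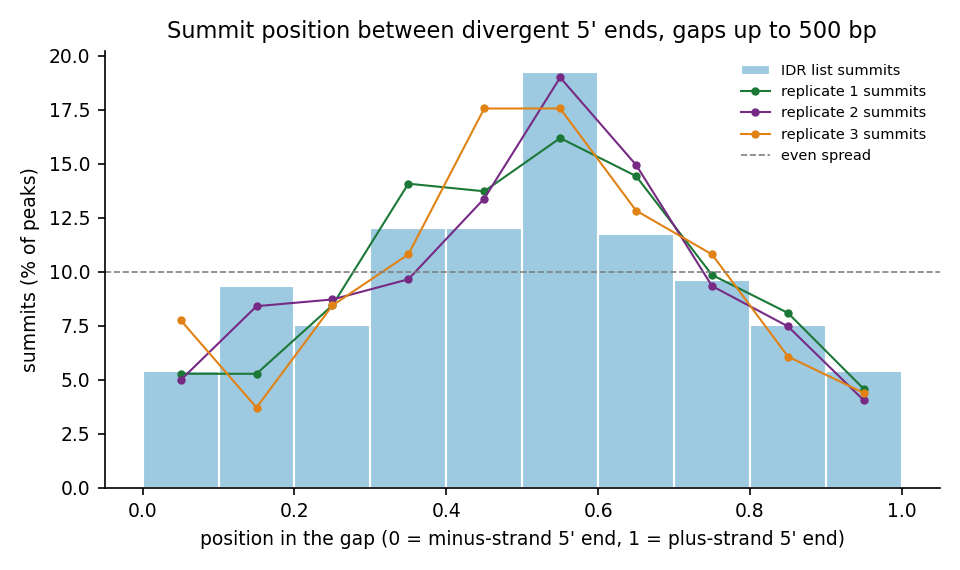
Position of the summit between the 5' ends for pairs up to 500 bp apart whose summit lies in the gap (x axis, 0 at the minus-strand and 1 at the plus-strand 5' end), as % of such peaks in each of 10 equal parts of the gap (y axis). Bars are the 332 summits of the IDR list, and the dashed line is an even spread. Each line gives 1 replicate's strongest relaxed peak within 100 bp of each IDR summit, where its summit lay in the gap. The lines are therefore selected to lie near the summits of the bars. Bars and lines are higher in the middle than at either end, with 64.5% of IDR summits in the middle 50%.

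Summits could be compared between replicates only where every replicate had one. Of the 515, 430 had a relaxed peak within 100 bp of the IDR summit in every replicate. Over these, which the 100 bp limit selects for agreement, the SD of the summit had a median of 18.2 bp, against 21.7 bp for 970 one-gene peaks selected alike. Of the 397 found in all replicates with an IDR summit in the gap, 314 (79.1%) lay on the same side of the midpoint in all 3 replicates as in the IDR list. At rpl-20 and Y17G9B.5 the summits of replicates 1, 2 and 3 were at 4750065, 4750062 and 4750066. At clsp-1, the worm Claspin, and eef-2, a translation elongation factor, they were at 9163553, 9163527 and 9163525, at or near the 5' end of eef-2 each time.

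Of the pairs, 3 had 2 peaks each. The pair mtx-1 and dnj-12, 492 bp apart, had 1 summit 36 bp from mtx-1 (signal 107) and another 29 bp from dnj-12 (signal 80.8). The first of these was found in all 3 replicates and the second in 2. The 2 peaks of dnj-29 with ndua-2 overlapped, with summits 162 bp from dnj-29 and 164 bp from ndua-2, and each was in the top list of 1 replicate. Both summits of B0491.6 with pigm-1 lay inside B0491.6, 283 and 11 bp from its 5' end. These 4 peaks all had a signal under that of the median divergent-promoter peak. The other 509 peaks each lay at a pair of their own, and no gene was in 2 pairs. At 11 peaks more than 1 pair met the rule, and the closest pair was used.

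Genes were grouped by 27 lists for cell division, growth and differentiated tissues. Of 1794 head-to-head pairs, 29.2% had a peak, and the lists are read against that. A listed gene stood on both sides of 47 divergent-promoter peaks, on 1 side of 191 and on neither side of 277. Pairs with 1 listed gene had a peak in 43.9% of cases (197 of 449), pairs with 2 in 39.3% (48 of 122) and pairs with none in 22.7% (278 of 1223).

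Genes grouped as cell division, in 4 lists, were at 61 divergent-promoter peaks (11.8%), with a median signal of 159. Of the 100 head-to-head pairs with such a gene, 64 had a peak. The group name is broad, since it takes in DNA repair genes and the kinase genes cdk-8 and cdk-9. Genes of chromosome segregation and the spindle had the highest count, with 37 of 48 pairs (77.1%, interval 62.7 to 88.0) and 29, 37 and 33 pairs in the replicates' top peaks. After kbp-4 and top-2, the strongest of the listed genes, which do not include ska-3, named after their values were seen, were at wapl-1 (a cohesin release factor) with htz-1 (signal 487), hcp-6 (a condensin II subunit) with let-630 (333), and ify-1 (securin) with rpl-22 (320). The condensin genes smc-4 and mix-1, the cohesin genes smc-3 and scc-1, and the kinetochore genes kbp-1, kbp-3, kbp-5, ndc-80 and him-10 were also among the 35 peaks of this list. Their signals ran from 87.9 at him-10 to 269 at smc-4.

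Genes of DNA replication had a peak at 12 of 23 pairs (52.2%). The strongest was at ctf-4, a replisome adaptor, with eef-1G (V, 10965568 to 10965821, signal 428, in the top peaks of every replicate). DNA repair and checkpoint genes had 11 of 23, led by polh-1 with rps-22. Cyclins, CDKs and the anaphase-promoting complex had 7 of 10, but only 3, 5 and 3 in the replicates' top peaks. The first of these, orc-5 with cyb-1 (IV, 10734620 to 10734820, signal 229), joins a subunit of the origin recognition complex and a B-type cyclin, and the master cell cycle kinase gene cdk-1, paired with iff-1, had signal 64.0 and was found in 2 replicates. The orc-5 and cyb-1 summit lay 155 bp from orc-5 and 473 bp from cyb-1.

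Of 7 head-to-head pairs with a DREAM or synMuv gene, 6 had a peak. Beside lin-54 and lin-53, the peak at vps-51 and lin-35, the retinoblastoma-like gene, had signal 466 (I, 5807387 to 5807682), and its replicate signals were 51.1, 307 and 94.9 at ranks 342, 66 and 85. Weaker peaks lay at trr-1, the worm TRRAP, with C47D12.2 (signal 209), at epc-1, an Enhancer of Polycomb homologue, with Y111B2A.12 (166), and at lin-61 with bub-1, a spindle checkpoint kinase (72.9). The last was in the top list of 1 replicate. The pair without a peak was mrpl-37 and lin-38, 857 bp apart. Neither dpl-1 nor efl-1 had a divergent-promoter peak.

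Genes of protein synthesis and turnover were at 82 divergent-promoter peaks (15.9%). Ribosomal protein genes had a peak at 39 of 47 pairs (82.98%, interval 69.2 to 92.4) and in 32, 38 and 34 pairs in the replicates, and 3 of their 38 peaks had a ribosomal protein gene on both sides. Of those, rps-10 with rpl-24.1 had signal 281 and rps-14 with rpl-36 had 252. Proteasome genes had 15 of 21 pairs (71.4%; 9, 16 and 13 in the replicates), led by rpn-3 with hsp-110 (signal 394), and translation factors 13 of 21 (61.9%), led by eef-2 with clsp-1 (491). Chaperonin and cytosolic chaperone genes had 7 of 8, in every replicate as well. Ubiquitin enzymes and cullins had 9 of 20, with ubc-18 first (195), and aminoacyl-tRNA synthetases 3 of 11, near the share of all pairs, with ears-2 first (248).

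Pairs with other genes of basic cell function were also occupied often. Nuclear pore and transport genes had a peak at 18 of 22 pairs (81.8%, 59.7 to 94.8), RNA polymerase II, Mediator, TFIID and Integrator genes at 14 of 18, mitochondrial ribosomal proteins at 19 of 27 and the respiratory chain at 17 of 25. Their strongest were npp-3 with top-2, ints-1 (an Integrator subunit) with rnf-1 (signal 225), mrpl-49 with rpl-28 (234.5) and atp-1 (the ATP synthase alpha subunit) with mcrs-1 (404). Splicing factors had 18 of 29, with rsp-1 and rsp-2, a pair of SR proteins facing each other, first (387). RNA polymerase I and III and nucleolar genes had 7 of 13, with nol-58 first (415). In replicates 1, 2 and 3 the mitochondrial ribosome list had 11, 19 and 13 pairs with a top peak.

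Germ line lists lay nearer to the background of 29.2%. P granule and small RNA genes had a peak at 10 of 23 pairs, led by simr-1, a small RNA pathway gene, with C06A5.3 (signal 321), oogenesis genes at 4 of 10, led by spn-4 with spe-39 (288), and meiosis genes at 8 of 22 (4, 4 and 7 in the replicates). The simr-1 and C06A5.3 summit lay 500 bp from simr-1, at the limit of the rule, and 117 bp from C06A5.3. The first meiosis gene, cra-1 with kbp-1 (101.4), was in the top list of 1 replicate. Histone genes, which lie in many divergent pairs, had a peak at 1 of 35 pairs, that of the H2A.Z gene htz-1 with wapl-1 (IV, 4445763 to 4446055, replicate ranks 134, 61 and 96).

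Genes of differentiated tissues had few. Chemoreceptors had a peak at 3 of 102 pairs (2.94%, 0.611 to 8.36), collagens at 4 of 20, sperm genes at 3 of 27, neuropeptides at 1 of 8, intestinal genes at none of 4 and muscle genes at none of 1. Several of these faced a gene of basic cell function. The collagen col-38 faces rpl-5 (signal 448), the chemoreceptor sri-5 faces rsr-1, and the neuropeptide nlp-4 faces exos-3, an exosome subunit (79.1). How reads were shared between near-identical copies, such as those of histone and chemoreceptor genes, was not given in the sources used here.

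**Figure D3:**
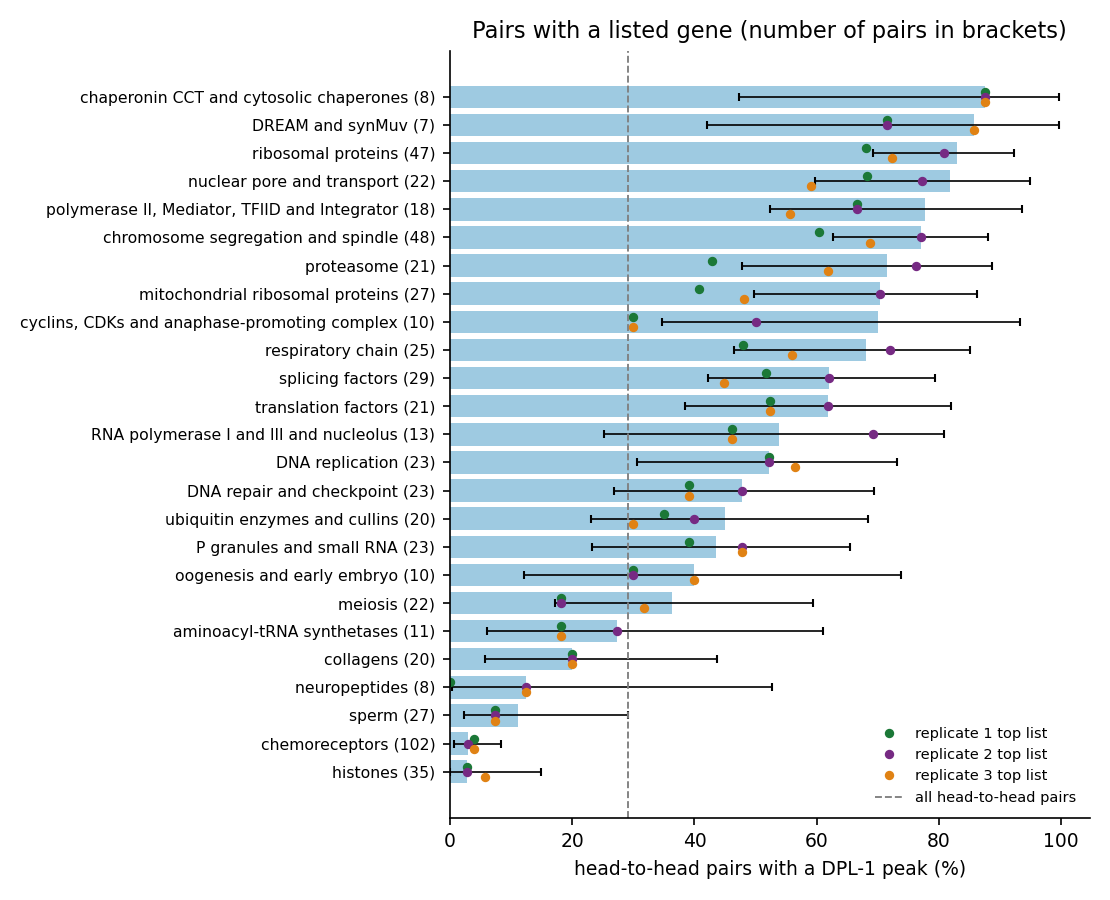
Share of head-to-head gene pairs with at least 1 listed gene that had a DPL-1 peak (x axis, %), for the 25 lists with 7 or more pairs, number of pairs in brackets. Bars are the IDR list with exact 95% intervals, points the top peaks of each replicate, and the dashed line is the 29.2% of all head-to-head pairs. Chaperonin, DREAM, ribosomal and nuclear pore lists lie above 80%, and chemoreceptor and histone pairs below 3%.

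Some promoters joined a gene of the cell division group and a gene of protein synthesis or turnover in 1 peak. Of 7 head-to-head pairs with a cell division gene facing a gene of protein synthesis or turnover, 6 had a peak (85.7%, interval 42.1 to 99.6). That interval includes the shares of all pairs with a cell division gene (64%, 64 of 100) and with a protein synthesis or turnover gene (66.4%, 83 of 125). The 6 were polh-1 with rps-22 (signal 612), ctf-4 with eef-1G (428), eef-1A.1 with rfc-4, a clamp loader subunit (426), ify-1 with rpl-22 (320), rpn-5 with the cohesin gene scc-1 (189) and iff-1 with cdk-1 (64.0). The pair ska-3 with rps-12 (925) is in neither the 7 nor the 6, because ska-3 is in none of the lists. The first 5 of the 6 were in the top list of every replicate. The eef-1A.1 and rfc-4 peak (III, 6971954 to 6972238) had replicate signals of 63.4, 289 and 79.6, and its summit was 148 bp from rfc-4 and 393 bp from eef-1A.1.

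The listed gene was often not the nearer one. At the 35 peaks with a ribosomal protein gene on 1 side only, the summit lay a median of 306 bp from the ribosomal protein gene and 175 bp from its partner, and was nearer to the ribosomal protein gene in 10. By each replicate's summit it was nearer in 10 of 33, 10 of 35 and 7 of 34. Nuclear pore genes were the nearer gene at 4 of 18 peaks (284.5 bp, against 144 bp to the partner), and chaperones at none of 7 in the IDR list and 1 of 7 in each replicate. Proteasome genes were the nearer at 12 of 15 (197 bp, against 242 bp) and in 10 of 13, 12 of 15 and 11 of 14 by replicate. Segregation genes were even, nearer at 19 of 35. With the 5' ends of all annotated transcripts these counts in the IDR list were the same. At rpl-20 the summit lay 287 bp away and 175 bp from Y17G9B.5, while at rpl-12 it was the reverse case, 25 bp from the ribosomal protein gene.

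**Figure D4:**
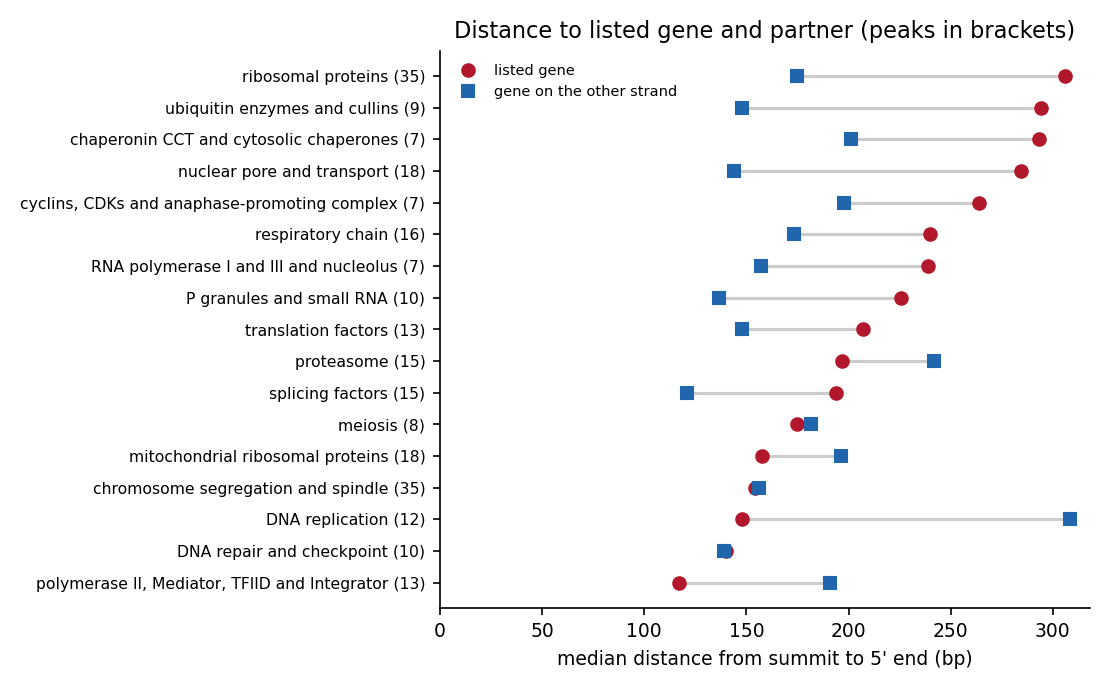
Median distance in bp from the summit to the 5' end of the listed gene (circles) and of the gene on the other strand (squares), for the 17 lists with at least 7 divergent-promoter peaks listed on 1 side, number of peaks in brackets. Ribosomal protein genes are the farthest from the summit (306 bp, against 175 bp to the partner), and segregation genes lie as far as their partners.

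The share of summits with an E2F-like match was within counting error of that at one-gene peaks. The match lay within 50 bp of 88 divergent-promoter summits (17.1%, 13.9 to 20.6), against 237 one-gene summits (18.6%, 16.5 to 20.8) and 14.6% of all nuclear IDR summits. By replicate the difference was 3.41, -0.0385 and 2.08 percentage points (exact sign-flip p = 0.5), and its sign changed with several settings. It was less frequent at pairs without a peak. At the midpoint of the gap, 8.99% of windows of the same length had it in pairs with an IDR peak (47 of 523), against 2.60% in pairs without (33 of 1271). Divergent-promoter peaks with a match had a median signal of 149, and those without it 103.

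The CHR match was found at 178 divergent-promoter summits (34.6%, 30.5 to 38.8), against 379 one-gene summits (29.7%, 27.2 to 32.3) and 26.3% of all nuclear IDR summits. The differences by replicate were 2.90, 5.69 and 2.65 percentage points, a mean of 3.74 ± 1.69 (SD, n = 3; exact sign-flip p = 0.25). At the midpoint of the gap the CHR share was 34.03% in pairs with an IDR peak (178 of 523) and 34.6% in pairs without (440 of 1271). Median signal was 109 with the match and 111 without it. The higher share over one-gene peaks was lost among peaks in the top list of all 3 replicates, where the difference was -0.989 percentage points, and within 250 bp, where it was -0.250.

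Of the 61 peaks with a cell division gene, 24 had an E2F-like match (39.3%, 27.1 to 52.7) and 37 a CHR match (60.7%, 47.3 to 72.9), against 29 (58%, 43.2 to 71.8) and 32 (64%) of 50 one-gene peaks at such genes. In the replicates' own divergent-promoter peaks at cell division genes the E2F-like share was 32.7%, 45% and 49.1%. The CHR share there was 40.8%, 46.7% and 45.3%, each below the interval of the IDR list. For the 54 peaks with a summit in every replicate, the CHR match was near 32 IDR summits, against 23, 24 and 29 by replicate. The cell division lists differed. Of the 35 peaks with a segregation gene, 19 had an E2F-like match (54.3%, 36.6 to 71.2) and 25 a CHR match (71.4%, 53.7 to 85.4), and 11 had both. One-gene peaks of the same list had the E2F-like match in 8 of 15 (53.3%) and the CHR match in 8 of 15. The E2F-like share in the replicates' own divergent-promoter peaks was 35.7%, 62.9% and 58.1%, and the CHR share was 42.9%, 54.3% and 41.9%, below that of the IDR list. For the 31 of these peaks with a summit in every replicate, the E2F-like match was near 17 IDR summits, against 9, 18 and 17 summits of replicates 1, 2 and 3, and the CHR match near 21, against 15, 16 and 16. Of all peaks with both matches, 14 of 38 had a cell division gene, against 10 of 50 with the E2F-like match only, 23 of 140 with the CHR match only and 14 of 287 with neither. Peaks at cyclins, CDKs and the anaphase-promoting complex had each match in 1 of 7. The CHR match was also frequent in lists outside cell division, at 5 of 8 peaks with a meiosis gene, 10 of 18 with a nuclear pore or transport gene, 7 of 13 with a translation factor and 4 of 7 with an RNA polymerase I or III or nucleolar gene. At ribosomal protein genes 2 of 38 peaks had an E2F-like match (5.26%) and 9 a CHR match, and at respiratory chain genes none of 16 and 1 of 16. No match says only that these letters are not in this window.

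**Figure D5:**
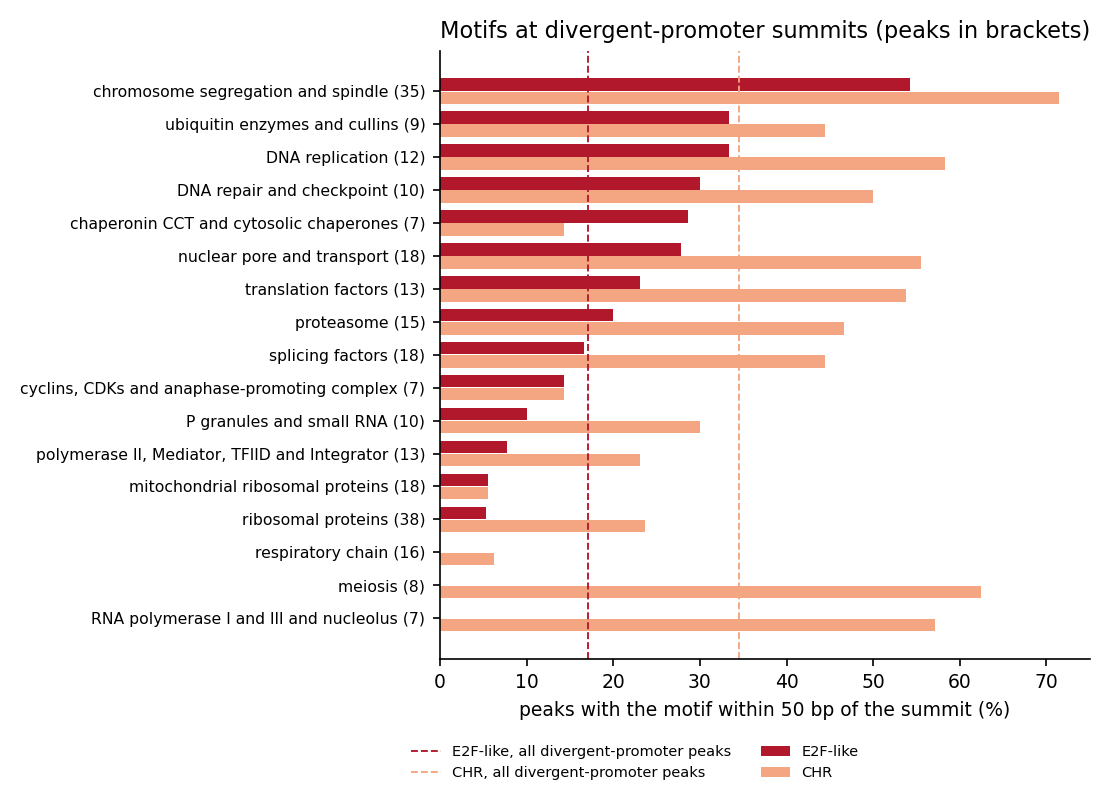
Share of divergent-promoter peaks with an E2F-like (dark) and a CHR match (light) within 50 bp of the IDR summit (x axis, %), for the 17 lists with at least 7 such peaks, number of peaks in brackets. Dashed lines give the shares over all 515 divergent-promoter peaks, 17.1% and 34.6%. Segregation and spindle genes have the highest shares of both, 54.3% and 71.4%, and respiratory chain genes have none and 6.25%.

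Across the genome the autosomes differed. Chromosomes I and III held 129 and 130 divergent-promoter peaks, and 39.3% and 43.9% of their head-to-head pairs had a peak, against 16.8% on V (73 of 435). On II it was 27.5% and on IV 25.9%. X had only 81 such pairs, of which 16 had a peak (19.8%, 11.7 to 30.1). Genes in no head-to-head pair had a peak most often on the same 2 chromosomes, at 11.1% on I and 10.7% on III, and least often on V, at 4.16%.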

How the data were processed

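DPL-1 ChIP-seq was measured in 3 biological replicates of 1 group. The authors deposited relaxed peak lists on ce11 for each replicate (28383 peaks for replicate 1 and 30000 each for replicates 2 and 3) and for the pooled reads, and an IDR-thresholded list of 3295, which equals the strongest 3295 pooled peaks. The signal value is the authors' strength per peak as deposited, on a scale that differs between lists. Summits and peak ends come from the deposited positions and are printed 1-based on ce11. The aligner, the peak caller and read depths were not given in the sources used here, which leaves the depth unknown. The 25 mitochondrial IDR peaks and the lists on ce10 were not used, and no control sample was analysed here.

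Gene 5' ends are those of the gene records of 19973 nuclear protein-coding genes in Ensembl release 115, with 217 symbols from RefSeq. Classes, distances and motif matches were computed with Python 3.11.15, numpy 2.4.6, pandas 2.3.3 and scipy 1.17.1. A replicate's top peaks are its strongest 3295. Tests were two-sided exact sign-flip permutations over replicates, and intervals are exact Clopper-Pearson. The class functions were tested on simulated data. Members, the 27 gene lists (14 of whose names had no protein-coding gene) and tests were chosen with earlier results of these data known. Named peaks were the 15 strongest, the first of each list, the 15 strongest with listed genes on both sides, all DREAM peaks, and the extremes of signal and gap, except that 1 pair and 1 sequence are not reported here. Alternatives were the distance, transcript 5' ends, stricter peak sets and motif settings. For each replicate left out, the IDR peaks in the top lists of both others were used.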

Additional observations from a re-analysis of the deposited data

How the results depend on the processing

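Over 11 results, 105 values under other settings were computed, of which 8 changed sign. Another 10, with the pooled relaxed list, are identical by construction because its top peaks are the IDR list. Within 250 bp there were 236 divergent-promoter peaks, 18.5% of peaks at 5' ends, with 88.98% between the ends, 73.8% of those in the middle 50%, and 10.6% with a protein synthesis or turnover gene. Within 1000 bp these shares were 33.3%, 90.9%, 62.3% and 14.7%. The stronger 50% of IDR peaks gave 32.4% of peaks at 5' ends, 94.3% between, 13.96% with a cell division gene and 20.2% with a protein synthesis gene. Peaks in the top list of all 3 replicates gave 284 peaks, 32.0%, 95.1%, 13.7% and 20.1%. A replicate was left out by keeping only IDR peaks in the top lists of both other replicates. That is a stricter filter on a list made from all 3. It gave 297 to 355 peaks, 31.4% to 31.9%, 93.2% to 94.6%, 12.5% to 13.8% and 18.8% to 19.4%, lowest in number without replicate 2. The own top peaks of the 2 replicates kept averaged 453, 406 and 453 divergent-promoter peaks without replicates 1, 2 and 3. These were 26.16%, 25.25% and 26.73% of peaks at 5' ends. Restricting to gaps of at most 500 bp, chosen after seeing the data, gave 64.5% in the middle 50%. The signs that changed were those of small differences, divergent minus one-gene. The CHR difference was -0.250 within 250 bp, -0.989 in the top list of all 3 and -0.565 without replicate 2, with 2.23 as the highest value on leaving out a replicate. The E2F-like difference was 1.51 within 1000 bp, 0.508 with transcript 5' ends, 0.502 in the top list of all 3 and 0.103 without replicate 2, with -1.295 as the lowest on leaving out a replicate and -2.85 with the motif within 100 bp. In their own top peaks, the 2 replicates kept had a mean E2F-like difference of 1.02, 2.75 and 1.69 without replicates 1, 2 and 3. Their mean CHR difference was 4.17, 2.77 and 4.295. The difference in recurrence was -0.194 within 250 bp. Among the stronger 50% of peaks the recurrence and CHR differences were 0.150 and 0.637. Their causes were not tested. The density ratio stayed between 5.26 and 10.95, and the summits just inside the distance rule (farther end 451 to 500 bp, 43 peaks) and just outside it (501 to 550 bp, 29 peaks) had median signals of 115.1 and 88.6. No replicate block could be added because the series has 1 group, and the tests already compare the classes within each replicate. Depth is unknown, and weak peaks are the least certain.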

Other observations

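A stretch of 16 bases was common to the gaps of polh-1 with rps-22 and of rpl-7A with set-21, both printed in the report. On the plus strand of build ce11 it is found at chrIII:1950432-1950447, between polh-1 and rps-22.
shared stretch: ctgagtattcaacgtt
It was noticed on reading the sequences, so its counts are a description with no test. The nuclear genome holds 16 exact copies on either strand, and 11 of them lay within 100 bp of an IDR summit. Of the 11, 5 were at divergent promoters, 4 at one-gene peaks and 2 away from 5' ends. All 5 divergent promoters had a ribosomal protein gene, and they include the pairs in whose gaps the stretch was first noticed. Their pairs were polh-1 with rps-22 (signal 612), rps-20 with ekl-4 (567), rpl-7A with set-21 (563), rps-0 with rbg-3 (361) and rpl-39 with rps-30 (188), and every one was in the top list of all 3 replicates. The one-gene peaks were at ints-4 (signal 568), F28F8.7 (211), rpl-13 (163) and rpl-32 (144). In narrower windows of 101 bases, 4 of 515 divergent-promoter summits and 3 of 1275 one-gene summits held a copy. No such window at the gap midpoint of the 1271 head-to-head pairs without an IDR peak held one. With only 16 copies in the genome, that absence says little. The stretch is not an E2F-like or CHR match, and the other 5 copies in the genome lay more than 100 bp from any IDR summit.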
